A study of Mus musculus with 2 samples.

Results

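The immediate early and heat shock genes described here are 10 of the 48816 features in the count matrices, chosen by symbol: Fos, Fosb, Jun, Junb, Egr1, Atf3, Klf4, Hspa1a, Hspa1b and Nr4a1. All 10 were found, each on 1 feature. They were measured by single-nucleus RNA sequencing in the stria vascularis, the epithelium of the cochlear lateral wall, of CBA/J mice of both sexes at P30 (postnatal day 30). In 1 library (MethFix) the isolated nuclei were fixed in methanol, and in the other (RNAlater) the dissected tissue was kept in RNAlater overnight at 4 °C before the nuclei were isolated. Each library pools mice, 5 for MethFix and 6 for RNAlater in the methods, where the labels give 5 to 6 and about 10, so neither has a replicate. The labels name no transgene, and no treatment of the mice.

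Immediate early genes are transcribed within minutes of a stimulus from factors already present in the cell, and most of those studied here encode transcription factors. Heat shock genes encode chaperones and are switched on when proteins misfold. Tissue dissection and dissociation are known to induce both groups, so their levels are often read as a sign of handling in single-cell data.

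The MethFix matrix holds 4748 barcodes and the RNAlater matrix 3868, and 3323 barcodes stand in both (70.0% of MethFix, 85.9% of RNAlater). In these shared barcodes, 1898 of the 2244 UMIs (unique molecular identifiers, 1 per captured RNA molecule) of the 10 genes in MethFix (84.6%) were matched by a UMI of the same gene and barcode in RNAlater, against 89.4% for all genes. The share was 86.4% for Klf4 and 89.9% for Jun, and lower for Nr4a1 (72.9%), Hspa1a (76.9%) and Hspa1b (68.1%). The RNAlater values and those of the MethFix barcodes shared with it are therefore not 2 independent measurements, and no difference between the preservation methods is read from them. The counts do not show in which of the preparations the shared nuclei were made. The 1425 MethFix-only barcodes and the 545 RNAlater-only barcodes lie outside this overlap. The latter had a median of 48.4% mitochondrial UMIs, against 0.653% in shared barcodes, so few of them passed the filters. With 1 library per method nothing is tested. Ranges in brackets are 95% limits for counting error alone, from the exact Poisson distribution for levels, the Clopper-Pearson method for shares and a conditional binomial for ratios. The barcodes held 501 to 134970 UMIs in MethFix (21027671 in all) and 506 to 41153 in RNAlater (17681824 in all).

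After filtering, 3372 MethFix and 2311 RNAlater nuclei remained. Clusters were named from marker genes as marginal, intermediate or basal nuclei (the 3 main layers of the stria vascularis) or as Reissner, root or spindle nuclei, and the 10 genes played no part in the clustering. Basal nuclei fell into clusters led by Cacna1e and Fat2 and a cluster led by Sorcs3 and Col27a1, a division made after the clusters were seen. Levels are given as CPM, the UMIs of a gene for each 1000000 UMIs of a class. The kit captures the 3′ end of a transcript, so levels were not divided by length, and they are compared between nuclei, not between genes.

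The sequences before the start sites of Hspa1a, Hspa1b, Jun and Klf4 are shown as examples. Hspa1a, Hspa1b and Jun were higher in marginal than in basal nuclei and Klf4 the reverse. Junb, also higher in marginal nuclei, and Egr1 and Nr4a1, also higher in basal nuclei, are not printed. They are the 250 bases upstream of the start site in RefSeq on GRCm38.p6, printed 5′ to 3′. Entries of 9 of the 10 genes, all but Egr1, were searched for motifs. Capitals mark a match on either strand to the heat shock element GAANNTTC (in Hspa1a, Hspa1b and Jun) or the EGR site GCGNGGGCG (in Klf4).
Hspa1a, chr17:34972157-34972406, minus strand: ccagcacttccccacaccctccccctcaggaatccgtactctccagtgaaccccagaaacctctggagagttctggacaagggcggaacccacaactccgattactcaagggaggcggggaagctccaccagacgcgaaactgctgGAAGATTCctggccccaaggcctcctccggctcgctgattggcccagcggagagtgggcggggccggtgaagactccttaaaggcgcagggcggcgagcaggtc
Hspa1b, chr17:34959239-34959488, minus strand: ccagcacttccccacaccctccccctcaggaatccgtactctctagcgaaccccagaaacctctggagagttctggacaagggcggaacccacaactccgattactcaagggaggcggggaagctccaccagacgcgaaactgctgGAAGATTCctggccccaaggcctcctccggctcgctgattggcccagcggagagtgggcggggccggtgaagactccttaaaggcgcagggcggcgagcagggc
Jun, chr4:95052223-95052472, minus strand: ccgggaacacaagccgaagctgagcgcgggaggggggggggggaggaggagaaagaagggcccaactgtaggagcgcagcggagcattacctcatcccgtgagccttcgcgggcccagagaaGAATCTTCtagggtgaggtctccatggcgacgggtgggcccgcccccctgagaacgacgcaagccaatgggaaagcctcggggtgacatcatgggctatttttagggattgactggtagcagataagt
Klf4, chr4:55532476-55532725, minus strand: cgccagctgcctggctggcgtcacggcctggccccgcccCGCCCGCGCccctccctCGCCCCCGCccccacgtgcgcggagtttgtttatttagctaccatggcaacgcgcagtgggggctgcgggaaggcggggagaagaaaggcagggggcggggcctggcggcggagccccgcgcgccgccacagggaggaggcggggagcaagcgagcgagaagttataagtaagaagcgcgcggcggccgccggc
The Hspa1a and Hspa1b stretches were the same at 247 of 250 bases (98.8%), with the substitutions C44T, T47C and T249G (Hspa1a base first, positions counted from 1 at the 5′ end). Both hold the heat shock element at the same place, 104 to 97 bases before the start site. Of 32851 RefSeq stretches of this length, 6.69% hold GAANNTTC and 4.70% the EGR site. The EGR site was also found before Fosb and Nr4a1 and TATAAA, the TATA box (12.4% of stretches), before Fos. No match to the CArG box (1.47%), the CRE TGACGTCA (1.55%) or the AP-1 site TGANTCA (6.75%) was found in the 9 stretches searched, and none of the motifs was found before Junb or Atf3. Bases outside the 250 and those before Egr1 were not searched, so a motif may lie there. The stretches of Atf3 and Nr4a1 lie before start sites inside their annotated loci, which hold 3 and 4 transcripts. The bases before the outer ends of these loci were not searched. A match is given as a description of the letters only. As the printed stretches are not all those of either direction, no link of a motif to a class is read.

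Klf4, a zinc finger transcription factor of epithelia and of reprogramming, separated the classes most widely. In basal nuclei it stood at 314 CPM (291 to 339) on 692 UMIs in RNAlater, 302 CPM (278 to 328) on 576 UMIs in shared MethFix barcodes and 114 CPM (71.6 to 173) on 22 UMIs in MethFix-only barcodes. In marginal nuclei the same sets held 6.33, 5.26 and 8.06 CPM, and in intermediate nuclei 8.08, 14.5 (8 of 38 UMIs in 1 nucleus) and 8.04 CPM. Reissner, root and spindle nuclei of RNAlater held between 5.12 and 6.49 CPM, on 1 to 3 UMIs each. Over all MethFix nuclei, spindle nuclei held 26.7 CPM (10.8 to 55.1) on 7 UMIs and Reissner nuclei 10.1 CPM on 4 UMIs. An intermediate MethFix cluster of 164 nuclei held 42.4 CPM (24.2 to 68.9) on 16 UMIs, against 9.28 and 9.47 CPM in the other intermediate clusters. The intermediate clusters of RNAlater held 8.06 and 8.10 CPM. How many of the 16 UMIs lay in 1 nucleus was not counted, and the interval takes no account of that. The basal level lay far above that of marginal and intermediate nuclei in each of the 3 sets. In RNAlater the levels outside basal nuclei had overlapping intervals. The ratio of basal to marginal nuclei was 49.6-fold in RNAlater (log2 5.63, 5.06 to 6.27), 57.5-fold in shared MethFix barcodes (log2 5.85, 5.20 to 6.57) and 14.2-fold in MethFix-only barcodes (log2 3.83, 2.48 to 5.42). Klf4 has its locus on chromosome 4 (GRCm38 55527143 to 55532466, minus strand, between 2 and 5 exons in its transcripts), and no other annotated gene overlaps it.

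Among basal nuclei, Klf4 was higher in the clusters led by Cacna1e and Fat2 than in that led by Sorcs3 and Col27a1. The RNAlater levels were 360 CPM (331 to 391) and 193 CPM (160 to 232), a log2 ratio of 0.90 (0.61 to 1.20), and those of shared MethFix barcodes 349 and 180 CPM (log2 0.95, 0.63 to 1.28). In RNAlater the former were 2 clusters, with 423 CPM (384 to 464) at a median of 3.32% mitochondrial UMIs and 245 CPM (206 to 290) at 0.399%. The second overlapped the Sorcs3 and Col27a1 cluster (median 0.386% mitochondrial UMIs) in its interval, and the part of the mitochondrial share in the difference was not tested. In MethFix-only barcodes the order was not seen, with 109 CPM on 14 UMIs and 126 CPM on 8 UMIs (log2 -0.21, -1.56 to 1.25). Of RNAlater basal nuclei, 337 of 592 (56.9%) held a Klf4 UMI. After each nucleus was thinned to 1000 UMIs the share was 24.5% (21.1 to 28.2, 143 of 583), against 0.448% (0.0924 to 1.30, 3 of 670) in marginal nuclei. The part of free RNA in either share was not tested. Median depths before thinning were 3443.5 UMIs in basal and 6085.5 in marginal nuclei. In shared MethFix barcodes the thinned share in basal nuclei was 22.4% (19.1 to 26.0), and in MethFix-only barcodes 14.9% (7.66 to 25.0, 11 of 74).

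**Figure D1:**
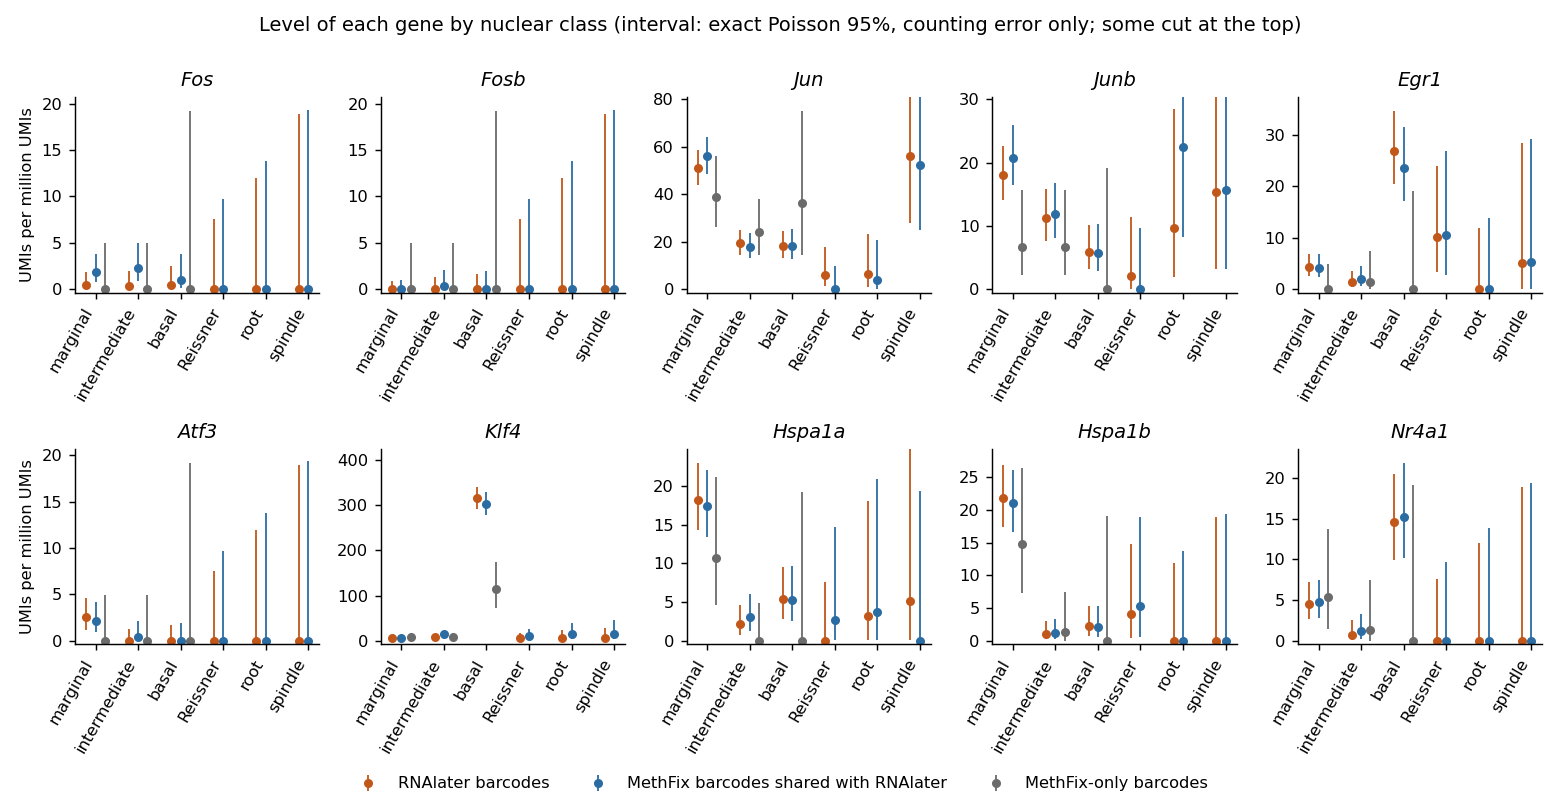
Level in CPM (vertical axis, 1 panel per gene) in 6 nuclear classes, for RNAlater barcodes, MethFix barcodes shared with RNAlater and MethFix-only barcodes (shown for classes of at least 100 nuclei). Points are summed levels and bars exact Poisson 95% intervals, some running past the top of a panel. Klf4 reached 314 CPM in RNAlater basal nuclei against 6.33 in marginal nuclei, and Hspa1b 21.8 CPM in marginal against 2.27 in basal nuclei.

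Egr1 and Nr4a1 were the other genes with their highest level in basal nuclei. Egr1 encodes a zinc finger transcription factor induced by growth factors and serum. It held 26.8 CPM (20.4 to 34.6) on 59 UMIs in RNAlater basal nuclei, 4.30 CPM in marginal, 1.41 CPM in intermediate and 10.2 CPM (3.32 to 23.9) on 5 UMIs in Reissner nuclei. In shared MethFix barcodes the basal and marginal levels were 23.6 and 4.21 CPM. The Reissner interval overlapped the basal one, as did that of spindle nuclei (5.12 CPM, 0.130 to 28.5, on 1 UMI). The marginal and intermediate levels lay below the basal interval. MethFix-only basal nuclei held 0 Egr1 UMIs among 192543 (0 to 19.2 CPM). The basal to marginal log2 ratio was 2.64 (1.84 to 3.51) in RNAlater and 2.49 (1.64 to 3.41) in shared MethFix barcodes. By RNAlater cluster, Egr1 held 36.7 CPM (26.0 to 50.4) and 16.0 CPM (7.31 to 30.4) in those led by Cacna1e and Fat2. The former cluster had the higher mitochondrial share (median 3.32% against 0.399%). The Sorcs3 and Col27a1 cluster held 19.8 CPM (10.3 to 34.7), and all these intervals overlapped. The part of the mitochondrial share was not tested.

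Nr4a1, an orphan nuclear receptor, held 14.5 CPM (9.94 to 20.5) on 32 UMIs in RNAlater basal nuclei, 4.56 CPM in marginal and 0.703 CPM in intermediate nuclei, and no UMI in Reissner, root or spindle nuclei. Shared MethFix barcodes held 15.2 CPM in basal and 4.73 CPM in marginal nuclei. Its basal UMIs lay mainly in the clusters led by Cacna1e and Fat2, with 18.8 CPM on 30 UMIs against 3.31 CPM on 2 UMIs in the Sorcs3 and Col27a1 cluster (log2 2.51, 0.53 to 5.62). Of the 30 UMIs, 24 lay in the cluster with the higher mitochondrial share (median 3.32%), at 23.2 CPM (14.9 to 34.5). The other (median 0.399%) held 10.7 CPM (3.91 to 23.2) on 6 UMIs. Its interval overlapped that of the Sorcs3 and Col27a1 cluster (0.400 to 11.9). The part of the mitochondrial share was not tested. The basal to marginal log2 ratio was 1.67 (0.80 to 2.59) in RNAlater. By cluster, RNAlater marginal nuclei held 2.41 CPM on 5 UMIs, 5.13 CPM (1.40 to 13.1) on 4 and 8.23 CPM (3.76 to 15.6) on 9. The intervals given overlapped that of all basal nuclei.

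Jun and Junb, subunits of the AP-1 transcription factor that pairs them with proteins of the Fos family, were higher in marginal than in basal nuclei. Jun held 50.9 CPM (44.1 to 58.4) on 201 UMIs in RNAlater marginal nuclei, 19.3 CPM (14.6 to 25.1) in intermediate, 18.2 CPM (13.0 to 24.7) in basal and 56.3 CPM (28.1 to 101) on 11 UMIs in spindle nuclei. The marginal and spindle levels had overlapping intervals, as did the intermediate and basal levels. Reissner and root nuclei were low, at 6.14 and 6.49 CPM on 3 and 2 UMIs. In shared MethFix barcodes Jun held 56.0 CPM in marginal, 17.9 CPM in intermediate and 18.4 CPM in basal nuclei, and in MethFix-only barcodes 38.9, 24.1 and 36.4 CPM, with intervals that overlapped. The basal to marginal log2 ratio was -1.49 (-2.01 to -0.99) in RNAlater and -1.61 (-2.17 to -1.09) in shared MethFix barcodes, but -0.10 (-1.53 to 1.12) on 7 basal UMIs in MethFix-only barcodes. Jun is a gene of 1 exon on chromosome 4 (GRCm38 95049034 to 95052222, minus strand) that overlaps Junos on the other strand.

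Junb held 18.0 CPM (14.0 to 22.7) on 71 UMIs in RNAlater marginal nuclei, 11.2 CPM (7.69 to 15.9) in intermediate and 5.90 CPM (3.14 to 10.1) in basal nuclei. The marginal to intermediate log2 ratio was 0.68 (0.06 to 1.33), and that of basal to marginal nuclei -1.61 (-2.58 to -0.74). Shared MethFix barcodes gave 20.8, 11.8 and 5.77 CPM in the same order. Root nuclei held 9.74 CPM on 3 UMIs in RNAlater and 22.5 CPM on 6 UMIs in shared MethFix barcodes, too few to place them. Junb overlaps Prdx2 on the other strand (chromosome 8, GRCm38 84974484 to 84978718). Reads were counted by Cell Ranger with its default settings, under which reads count for a gene on their own strand.

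Hspa1a and Hspa1b encode the inducible Hsp70 chaperone and lie on chromosome 17 as genes of 1 exon, Hspa1a at 34969190 to 34972156 and Hspa1b at 34956436 to 34959238 (GRCm38, minus strand). Hspa1a held 18.2 CPM (14.3 to 23.0) on 72 UMIs in RNAlater marginal nuclei, 5.45 CPM in basal and 2.11 CPM in intermediate nuclei. Hspa1b held 21.8 CPM (17.4 to 26.9) on 86 UMIs, 2.27 CPM and 1.05 CPM in these classes. Both were thus highest in marginal nuclei, and no interval of another main class reached the marginal interval. In shared MethFix barcodes the marginal levels were 17.3 and 21.0 CPM, and in MethFix-only barcodes 10.7 CPM on 8 UMIs and 14.8 CPM on 11 UMIs. The basal to marginal log2 ratio was -1.74 (-2.76 to -0.85) for Hspa1a and -3.26 (-4.92 to -1.98) for Hspa1b. Marginal clusters of MethFix held 20.1 (15.4 to 25.8), 7.29 (3.33 to 13.8) and 14.4 CPM (3.92 to 36.8) of Hspa1a. Those of RNAlater held 21.2, 11.0 and 20.5 CPM, with intervals that overlapped. RNAlater spindle nuclei held 1 UMI of Hspa1a (0.130 to 28.5 CPM) and 0 of Hspa1b (0 to 18.9 CPM). These spindle intervals reached the marginal ones. The annotated transcripts were identical at 90.7% of the aligned bases, but at 53.5% over their last 300 bases, where a 3′ kit captures most reads. Reads from the near-identical part could have been split or lost, so the level of each copy is uncertain. Hspa1a also overlaps Gm20481, and Atf3 Gm24748, on the other strand.

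Fos and Fosb, the partners of Jun in AP-1, and Atf3, a stress-induced factor of the ATF family, were close to the limit of detection. Over all 3323 shared barcodes, Fos had 24 UMIs in each matrix, Fosb 1 in each, and Atf3 24 in MethFix and 34 in RNAlater. In nuclei kept, Fos held 1.84 CPM on 7 UMIs in marginal nuclei of shared MethFix barcodes, 6 of them in 1 nucleus, and 2.29 CPM on 6 UMIs in intermediate nuclei. In RNAlater those classes held 2 and 1 UMIs. Atf3 reached 2.53 CPM (1.21 to 4.66) on 10 UMIs in RNAlater marginal nuclei and had no UMI in basal (0 to 1.68 CPM) or intermediate nuclei (0 to 1.30 CPM). The upper limit of its basal to marginal log2 ratio was -0.32 in RNAlater and 0.23 in shared MethFix barcodes, where 8 UMIs stood in marginal and 0 in basal nuclei. For Fos and Fosb, differences between the 3 main classes were not detectable at this depth. Fos lies on chromosome 12 (85473890 to 85477273, plus strand), Fosb on chromosome 7 (19302696 to 19310051, minus strand), Atf3 on chromosome 1 (191170296 to 191218039, minus strand) and Nr4a1 on chromosome 15 (101254269 to 101274795, plus strand), all on GRCm38. Nr4a1 was matched to the annotation without its version number.

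Set side by side, 7 of the 10 genes had at least 50 UMIs over basal and marginal nuclei of RNAlater, and all 7 differed by a fold of 2 or more, 3 higher in basal nuclei (Klf4, Egr1, Nr4a1) and 4 lower (Jun, Junb, Hspa1a, Hspa1b). Over all 9764 genes with as many UMIs, 15.9% were higher and 18.2% lower. Each of the 7 had fewer than 50 UMIs in its lower class and met the minimum only with its higher class added, which favours wide ratios. The 9764 genes were not matched to the 7 in UMIs, so no excess over these shares is read. The 3 genes under the minimum (Fos, Fosb, Atf3) could not be placed. Of related genes with as many UMIs, 1 of 3 AP-1 and ATF relatives was higher (Jdp2, log2 1.19) and none lower. Among 13 other immediate early genes, 3 were higher and 4 lower, from Btg2 (log2 3.29), an antiproliferative gene, to Gadd45b (log2 -3.31), a stress sensor. Of 10 regulators of induction such as kinases and serum response factors, 1 was higher (Mapk3, log2 1.46), and of 17 other chaperones 1 was higher (Hspb1, log2 1.49) and 3 lower, of which Hspa4l fell by 3.47 on the log2 scale.

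**Figure D2:**
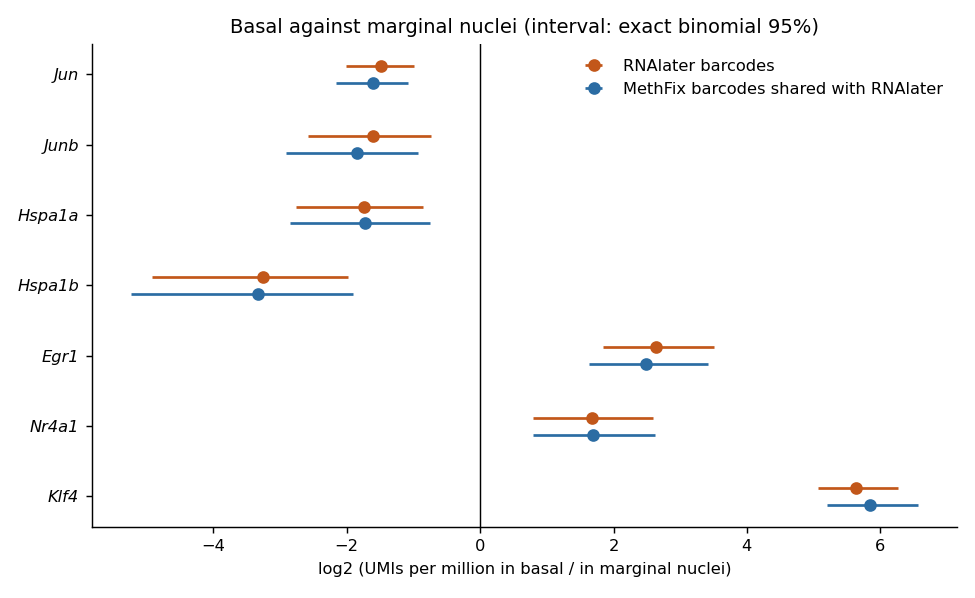
Log2 ratio of the CPM in basal to marginal nuclei (horizontal axis) for the 7 genes with at least 50 UMIs in RNAlater, in RNAlater barcodes and in MethFix barcodes shared with RNAlater. Points are ratios and bars exact binomial 95% intervals. Jun, Junb, Hspa1a and Hspa1b lie below 0 and Egr1, Nr4a1 and Klf4 above it.

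The shares of RNAlater nuclei with a UMI, thinned to 1000 UMIs, put basal and marginal nuclei in the same order as the levels for 6 of the 7 genes with at least 50 UMIs, all but Nr4a1. Jun was found in 6.72% (4.94 to 8.88) of marginal nuclei (22.7% unthinned), 2.11% of intermediate and 1.89% of basal nuclei. Hspa1a was found in 2.84% of marginal (9.64% unthinned) and 0.343% of basal nuclei, and Hspa1b in 3.43% (10.4% unthinned) and 0.172%. The basal shares of both rest on 2 and 1 nuclei, and the part of free RNA in them was not tested. Egr1 was found in 2.57% of basal (7.43% unthinned) and 0.448% of marginal nuclei, and Junb in 1.79% of marginal (10.1% unthinned) and 0.858% of basal nuclei, with intervals that overlapped for Junb. Nr4a1 went against its level, with 0.858% (0.279 to 1.99) in basal (4.73% unthinned) and 1.19% (0.517 to 2.34) in marginal nuclei, so no order of its shares is read. For the sum of members, RNAlater levels were 388 CPM in basal, 127 in marginal, 87.0 in spindle, 44.3 in intermediate, 28.6 in Reissner and 26.0 CPM in root nuclei. The marginal and spindle intervals overlapped, as did those of intermediate, Reissner and root nuclei, and Klf4 alone made up 692 of the 854 basal UMIs.

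Few nuclei held more than 1 of the 10 genes. In RNAlater, 357 of 674 marginal nuclei held none, 234 held 1, 69 held 2 and 14 held 3 or more. In basal nuclei the numbers were 227, 272, 77 and 16 of 592, and in intermediate nuclei 430, 81, 9 and 2 of 522. After thinning to 1000 UMIs, Egr1 was found in 3.50% (1.14 to 7.97, 5 of 143) of basal nuclei with Klf4 and in 2.27% (1.10 to 4.14, 10 of 440) of those without. Junb was found in 4.44% (0.543 to 15.1, 2 of 45) of marginal nuclei with Jun and in 1.60% (0.770 to 2.92, 10 of 625) of those without. Hspa1b was found in 15.4% (7.63 to 26.5, 10 of 65) of unthinned marginal nuclei with Hspa1a and in 9.85% (7.60 to 12.5, 60 of 609) of those without. These 3 pairs had overlapping intervals. Over all ordered pairs of genes in each class and set, where at least 20 nuclei held the first gene, the share of nuclei with the second was higher with the first gene, by intervals that did not overlap, in 20 of 207 unthinned and 0 of 45 thinned ones, and lower in none. The thinned pairs are only those with Jun or Hspa1b in marginal or Klf4 in basal nuclei as the first gene, the ones still in at least 20 nuclei. So the thinned and unthinned counts are not of the same pairs and are not compared. A pair can count in both orders, and RNAlater and shared MethFix barcodes largely repeat each other. The same share was not computed for pairs of other genes, so nothing particular to the 10 genes is read from these counts. Nuclei with Klf4 were deeper than those without in basal nuclei (median 4218 and 2755 UMIs in RNAlater). At near equal depth (6176.5 and 6074 UMIs), Egr1 was found in 8.57% (3.21 to 17.7, 6 of 70) of RNAlater marginal nuclei with Hspa1b and in 0.497% (0.103 to 1.44) of those without. In intermediate nuclei of RNAlater, Junb was found in 16.7% (6.97 to 31.4, 7 of 42) of nuclei with Jun and in 4.58% (2.89 to 6.86) of those without, at 6005 and 5425 UMIs. In shared MethFix basal nuclei, Egr1 was found in 30.8% (14.3 to 51.8, 8 of 26) of nuclei with Nr4a1 and in 4.55% (3.02 to 6.56) of those without, at 3826.5 and 2759 UMIs. The last 3 pairs were chosen after their values were seen, and the part of depth was not tested.

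Over 15 class and set units of at least 50 nuclei, the genes with the most similar pattern were found by Pearson's correlation of log2 (CPM + 10), a description over units that share libraries. For Jun they were Bbs7 (r = 0.96), AW209491 (0.93) and Rgl3 (0.92), and for Junb Gm44511 (0.94), Unc50 (0.90) and Gm20388 (0.90). For Klf4 they were Slco2b1 (0.99), Fli1 (0.99) and 9430020K01Rik (0.98), and for Hspa1b Gm20503 (0.98), Pacsin2 (0.97) and Tmem45b (0.97). The other 6 genes had fewer than 200 UMIs and were not ranked.

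MethFix-only barcodes were compared with shared barcodes within the MethFix matrix, since only the former are not also in the RNAlater matrix. The preparation of the shared nuclei is not known, so these ratios cannot be told apart from a difference in preparation. In basal nuclei Klf4 was lower in MethFix-only barcodes, with 114 CPM on 22 UMIs in 130 nuclei against 302 CPM on 576 UMIs in 619 nuclei (log2 -1.40, -2.09 to -0.79). It was the only one of the 10 genes with at least 50 UMIs there. Of the 5973 genes with as many, 12.8% were lower by a fold of 2 and 1.44% higher. These genes were not matched to Klf4 in UMIs, so no excess is read. Egr1 and Nr4a1 had 0 UMIs in MethFix-only basal nuclei against 45 and 29 in shared ones, and the upper limits of their log2 ratios were -0.24 and 0.43. Jun went the other way in value, with 36.4 against 18.4 CPM (log2 0.99, -0.43 to 2.18). The Klf4 log2 ratio was -1.68 (-2.57 to -0.92) in the clusters led by Cacna1e and Fat2 and -0.52 (-1.77 to 0.52) in the Sorcs3 and Col27a1 cluster, with intervals that overlapped. MethFix-only basal nuclei were shallower (median 1114.5 against 2842 UMIs), had a higher mitochondrial share (median 2.29% against 0.985%) and a lower share of ribosomal protein UMIs (0.250% against 0.405% of UMIs outside mitochondrial genes). Within nuclei of 500 to 3000 UMIs the Klf4 log2 ratio was -0.78 (-1.53 to -0.10), and within those of 3000 to 8000 UMIs it was -2.82 (-5.87 to -0.96), on 2 UMIs in 10 MethFix-only nuclei. The part of depth and of RNA quality in the rest was not tested.

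In marginal nuclei the summed level of the 10 genes was 84.6 CPM (65.0 to 108) on 63 UMIs in MethFix-only and 133 CPM (122 to 145) on 507 UMIs in shared barcodes (log2 -0.66, -1.06 to -0.28). Junb showed the widest difference of the 4 genes with at least 50 UMIs, with 6.71 CPM on 5 UMIs against 20.8 CPM on 79 UMIs (log2 -1.63, -3.29 to -0.35). The log2 ratios of Jun (-0.52, -1.14 to 0.04), Hspa1a (-0.69, -1.96 to 0.37) and Hspa1b (-0.51, -1.57 to 0.41) had intervals that held 0. So 1 of the 4 was lower by a fold of 2 and none higher, where 4.39% of 8402 genes were lower and 1.58% higher. The median log2 ratio was -0.61 for the 4 and -0.16 for all genes. Each of the 4 had fewer than 50 UMIs in MethFix-only barcodes and met the minimum through the shared ones. The 8402 genes were not matched to the 4 in UMIs, so no excess is read from these shares or medians. The ratio differed between depth ranges, which were chosen after seeing the data. In the 217 MethFix-only and 60 shared nuclei with 500 to 3000 UMIs the sum of members was 115 and 61.6 CPM (log2 0.90, -0.27 to 2.29) on 43 and 7 UMIs, and in the 88 and 698 nuclei with over 3000 UMIs it was 54.2 and 135 CPM (log2 -1.32, -2.05 to -0.68). The median depth was 2190 UMIs in MethFix-only and 5195 in shared marginal nuclei.

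In intermediate nuclei the sum differed by less than the counting error, with 42.9 and 54.6 CPM (log2 -0.35, -0.95 to 0.21). Jun was the only gene with at least 50 UMIs, at 24.1 and 17.9 CPM (log2 0.43, -0.44 to 1.24), and 4.90% of 7365 genes were lower and 1.11% higher by a fold of 2. Among related genes with enough UMIs, none was higher by a fold of 2 in MethFix-only barcodes of these 3 classes except Ppp1r15a in marginal nuclei (log2 1.14). Smaller differences in that direction had intervals above 0, such as Klf10 in marginal (log2 0.68, 0.30 to 1.04) and Hsp90ab1 in marginal (0.51, 0.34 to 0.67) and intermediate nuclei (0.45, 0.18 to 0.72). These were chosen after their values were seen, and genes with such intervals were not counted among the related or all genes. In basal nuclei 2 of 3 AP-1 and ATF relatives, 3 of 4 other immediate early genes, 3 of 8 regulators and 3 of 14 other chaperones were lower by a fold of 2. In marginal nuclei these counts were 1 of 3, 2 of 10, 1 of 8 and 1 of 17, and in intermediate nuclei 1 of 3, 0 of 5, 0 of 8 and 0 of 12. Over all genes with at least 50 UMIs, 12.8% were lower by a fold of 2 in basal, 4.39% in marginal and 4.90% in intermediate nuclei. The related genes were not matched to these in UMIs, so no excess is read. Spindle nuclei, few in both sets, went the other way in the sum of members. It was 240 CPM (17 UMIs in 38 nuclei) in MethFix-only and 89.1 CPM (17 UMIs in 58 nuclei) in shared barcodes. The log2 ratio was 1.43 (0.37 to 2.49), at median depths of 1564 and 3105.5 UMIs. Spindle nuclei were outside the classes planned for this comparison. The share of all genes past a fold of 2 was not computed for them, so nothing particular to the members is read.

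**Figure D3:**
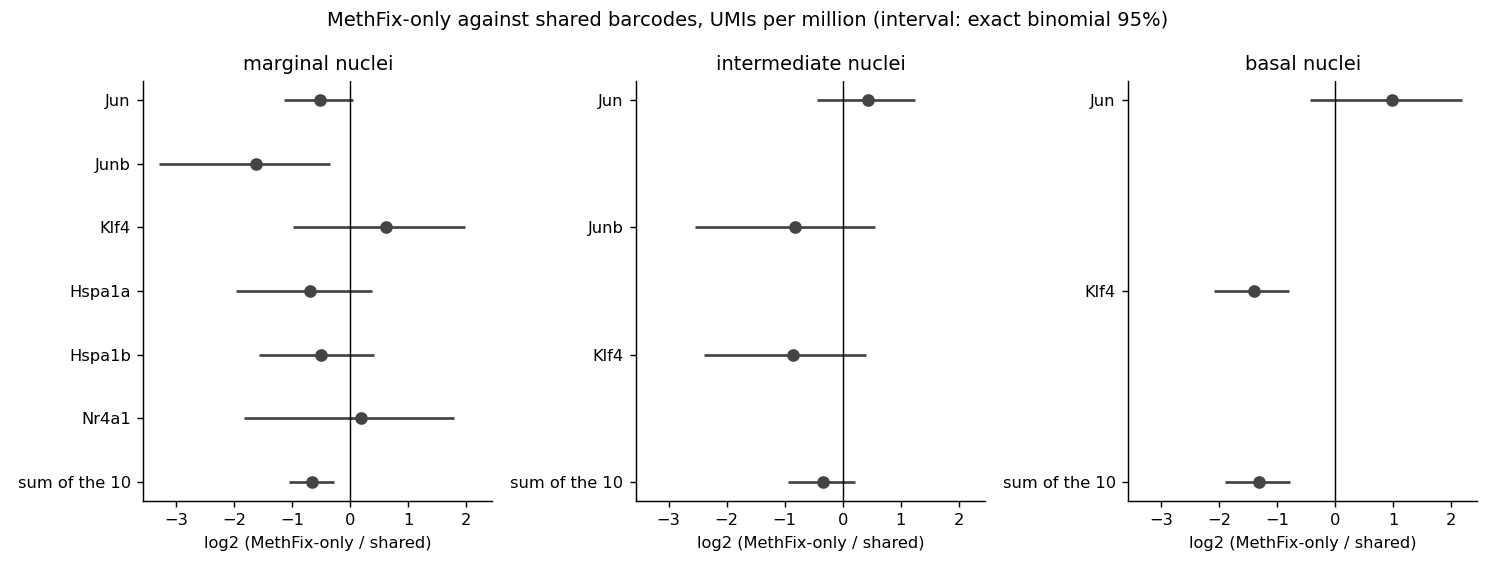
Log2 ratio of the CPM in MethFix-only to shared barcodes of the MethFix matrix (horizontal axis), for genes with at least 20 UMIs and at least 1 in each set and for the sum of the 10, in marginal, intermediate and basal nuclei. Points are ratios and bars exact binomial 95% intervals. The intervals of Junb and of the sum in marginal nuclei, and of Klf4 and of the sum in basal nuclei, lie below 0.

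The share of mitochondrial (mt-) UMIs is used as a sign of damaged nuclei or of cytoplasm carried along, and levels by that share are given in CPM with mt- genes left out of the total. Over all RNAlater barcodes with at most 8000 UMIs, Klf4 stood at 35.8 CPM (31.8 to 40.2) under 1% mt-, 179 CPM at 1 to 5%, 346 CPM (295 to 403) at 5 to 10%, 269 CPM at 10 to 25%, 86.1 CPM at 25 to 50% and 56.7 CPM (38.0 to 81.4) at 50% or more. In MethFix the Klf4 values were 27.5, 108, 163, 241, 67.9 and 70.2 CPM. The level thus went up to between 5 and 25% and then down, in both matrices. As most barcodes stand in both, the MethFix values are not a separate observation. Basal nuclei had a higher mt- share than marginal nuclei (median 0.880% and 0.372% in RNAlater), so the classes are not spread evenly over these bins. Within basal nuclei led by Cacna1e and Fat2, Klf4 stood at 278 CPM (235 to 326) under 1%, 416 CPM (368 to 468) at 1 to 5%, 450 CPM (382 to 528) at 5 to 10% and 440 CPM (329 to 577) at 10 to 25% in RNAlater. The MethFix values of Klf4 there were 215, 392, 378 and 440 CPM. In both matrices, which again share barcodes, the level below 1% lay under the others, whose intervals overlapped. Between 1 and 10% against under 1%, the Klf4 log2 ratio in these nuclei was 0.62 (0.35 to 0.90) in RNAlater and 0.85 (0.53 to 1.18) in MethFix. The share of ribosomal protein UMIs moved with the mt- share, from 0.206% of UMIs outside mt- genes under 1% to 0.968% at 10 to 25% over all MethFix barcodes of these Klf4 values. Its part in the Klf4 values was not tested.

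Within marginal nuclei of RNAlater, Jun stood at 77.1 CPM with 1 to 10% mt- UMIs and 46.4 CPM with under 1% (log2 0.73, 0.26 to 1.19), but in MethFix at 62.4 and 50.0 CPM (log2 0.32, -0.09 to 0.72). Between all RNAlater barcodes over 10% mt- and those at or under 10%, Jun stood at 49.7 and 31.8 CPM (log2 0.64, 0.26 to 1.01), Klf4 at 124 and 75.7 CPM (log2 0.71, 0.47 to 0.95) and Nr4a1 at 12.9 and 5.13 CPM (log2 1.33, 0.50 to 2.11). Hspa1a (10.2 and 8.74 CPM) and Hspa1b (8.86 and 9.51 CPM) did not differ beyond the counting error, with log2 intervals of -0.67 to 1.02 and -1.06 to 0.74. In MethFix the log2 ratios were 1.27 (1.02 to 1.52) for Klf4, 1.43 (0.54 to 2.24) for Nr4a1 and 0.36 (-0.10 to 0.79) for Jun. Of 7 genes with at least 50 UMIs in RNAlater, 1 was higher by a fold of 2 (Nr4a1) and none lower, where 22.5% of 12036 genes were higher and 34.4% lower. Of 17 other chaperones, 10 were higher, among them Cryab (log2 2.99) and Hspe1 (2.85), and of 10 regulators 3 were higher and 1 lower. Of 13 other immediate early genes 2 were higher, and of 3 AP-1 and ATF relatives 2, with none lower in either list. The listed genes were not matched to all genes in UMIs, so no excess is read from these counts. With all UMIs as the denominator the log2 ratios of Klf4 (-0.11) and Jun (-0.18) turned, and with a split at 25% that of Klf4 was -0.19. Most barcodes over 10% fell into no named class when clustered without that limit (1035 of 1141 in RNAlater), so these values are not of a class.

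**Figure D4:**
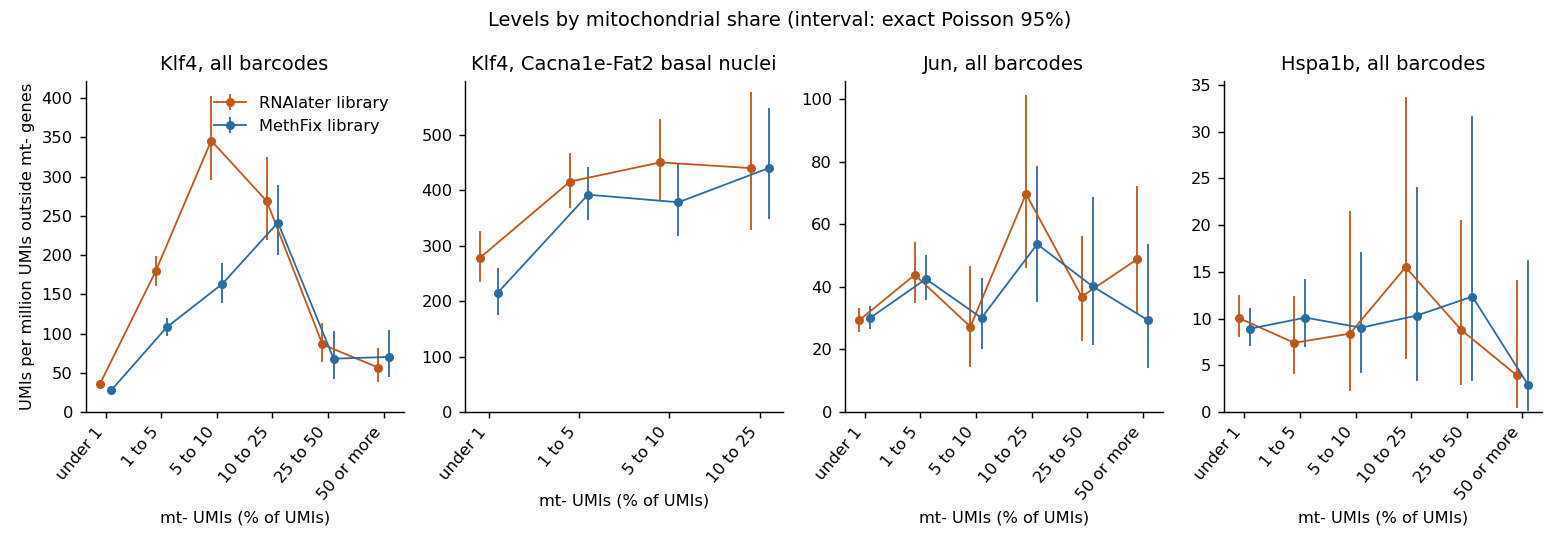
Level in CPM with mt- genes left out of the total (vertical axis) against the share of mt- UMIs in 6 bins (4 for basal nuclei), for Klf4 over all barcodes, Klf4 in basal nuclei led by Cacna1e and Fat2, Jun and Hspa1b, in RNAlater and MethFix. Points are summed levels and bars exact Poisson 95% intervals. Klf4 over all RNAlater barcodes reached 346 CPM at 5 to 10% mt- UMIs, against 35.8 CPM under 1%.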

How the data were processed

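Single-nucleus RNA was measured in 1 MethFix and 1 RNAlater library of mouse stria vascularis. The authors deposited raw counts of UMIs per gene and barcode, made with Cell Ranger 3.0.1 on GRCm38. The submitters' processing notes also name Scanpy 1.4.5. No normalization had been applied to the deposited counts.

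Barcodes with at least 200 genes, at most 8000 UMIs and at most 10% mt- UMIs were kept, and doublets were removed with Scrublet in scanpy 1.11.5 (224 in MethFix, 18 in RNAlater). Each library was clustered on 4000 variable genes, 30 principal components and 10 neighbours with leidenalg 0.10.2 (resolution 1 for MethFix, 1.5 for RNAlater). The 72 listed genes and mt- genes were left out of the variable genes. Clusters were named from 17 marker lists. A second clustering had no mt- limit. UMIs were summed per class and barcode set, and thinning to 1000 UMIs was used for shares. Ratio code was tested on simulated data.

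The 10 genes, the related lists and the marker lists were chosen with earlier results of these data known. The rule for named genes was the 10 genes, the related genes by count with those of the highest or lowest ratio, and the 3 genes most alike in pattern. Samples were grouped by label, and with 1 library per group, libraries sharing barcodes and no test, no p-value is given. Effective sizes from edgeR 4.0.16 (TMM) and DESeq2 1.42.0 were alternatives in R 4.3.3. Intervals were computed with scipy 1.17.1 under Python 3.11.15.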

Additional observations from a re-analysis of the deposited data

How the results depend on the processing

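Each library is 1 sample, so leaving out a replicate was not possible. No paired analysis was possible because each group has 1 library and no result comes from a test. Of 827 alternative values for 94 results, 156 of the main results' values and 572 of the others stayed within the main interval, 47 of each moved out of it and 5 turned. The class levels in RNAlater stayed there under other filters, clusterings, denominators, TMM or DESeq2 sizes and without the richest nucleus, except Klf4 in basal nuclei as a mean over nuclei (287 CPM). The MethFix-only levels, added after seeing the data, lay outside: Jun 38.9, Junb 6.71, Hspa1a 10.7 and Hspa1b 14.8 CPM in marginal, and Egr1 0, Klf4 114 and Nr4a1 0 CPM in basal nuclei. Within 500 to 3000 UMIs (added) the MethFix-only log2 ratio was 1.67 for Jun and 0.90 for the sum in marginal nuclei, the latter turned, and -0.78 for Klf4 and -0.77 for the sum in basal nuclei. In the Sorcs3 and Col27a1 cluster (added) it was -0.52 for Klf4 and -0.34 for the sum, and with 1 to 10% mt- UMIs (added) -1.10 for the sum in intermediate nuclei.

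Without the minimum of 50 UMIs, genes higher and lower by a fold of 2 in MethFix-only barcodes numbered 5922 and 981 (133 and 369 with it) in marginal, 4920 and 1090 (82 and 361) in intermediate and 7147 and 1388 (86 and 765) in basal nuclei. That setting lets in genes of few UMIs, and a count of 0 was set to 3 UMIs in these ratios. As the MethFix-only totals are smaller, a gene with no UMI there and few in shared barcodes was counted as higher. The counts without the minimum are therefore not read as differences. For mt- share, the RNAlater log2 ratios turned with all UMIs as denominator (Jun -0.18, Klf4 -0.11, sum -0.19), and the Klf4 ratio with a split at 25% (-0.19, sum 0.052). As a mean over barcodes they were 0.17 (Klf4) and 0.39 (sum), and Klf4 was 1.06 without the upper limit. In MethFix, Klf4 and the sum gave 0.55 and 0.11 with all UMIs, 0.081 and 0.13 at 25%, 1.65 and 1.05 without the upper limit and 0.75 and 0.56 as means. Klf4 in basal nuclei at 1 to 10% (added) gave 0.93. Beyond the denominators, the cause was not tested.

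Shares depend on depth by construction. Unthinned and at 500 UMIs they were 56.9% and 15.9% for Klf4, 7.43% and 1.35% for Egr1 in basal nuclei, and 22.7% and 1.93% for Jun, 9.64% and 1.34% for Hspa1a and 10.4% and 1.19% for Hspa1b in marginal nuclei. Unthinned Junb and Nr4a1 were 10.1% and 4.73%. Egr1 and Nr4a1 among unthinned Klf4 nuclei were 10.4% and 7.42%. Depth limits what can be said of Fos, Fosb and Atf3.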

Other observations

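In the 3323 shared barcodes, the RNAlater matrix held 1.21 times the UMIs of the MethFix matrix. It held 1.22 times as many in the median of all 10822 genes with at least 200 UMIs over both. Each of the 50 listed genes with as many UMIs also had more in RNAlater. The share of the 10822 genes with more was not computed, so nothing particular to the listed genes is read. Hspa8, which encodes the constitutive Hsp70 chaperone, stood apart among the listed genes with 329 UMIs in MethFix and 1023 in RNAlater, 3.11 times as many, though the barcodes are the same. It is 1 of 97 genes over 2 times, chosen here after its values were seen. Dusp1, a phosphatase induced by stress, had 762 and 1273 UMIs (1.67 times), and Klf10 457 and 758 (1.66 times). Of the 10 genes, Egr1 had the largest ratio, with 116 and 171 UMIs (1.47 times), and Junb the smallest of those with 200 UMIs over both, with 205 and 220 (1.07 times).

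Few of the 545 RNAlater-only barcodes enter a class. The sum of members stood at 362 CPM (236 to 530) on 26 UMIs in those of the 545 with 10 to 25% mt- UMIs, 190 CPM at 25 to 50% and 232 CPM at 50% or more, with mt- genes left out of the total. In MethFix marginal nuclei, where Klf4 is otherwise low, its level outside mt- genes was 4.49 CPM (2.51 to 7.40) under 1% mt- UMIs, 59.2 CPM (25.6 to 117) on 8 UMIs at 5 to 10% and 254 CPM (151 to 402) on 18 UMIs in 31 barcodes at 10 to 25%. RNAlater marginal nuclei held 12.2 CPM of Klf4 on 1 UMI at 10 to 25%. These marginal nuclei were named in the clustering without the mt- limit. Whether barcodes of other classes are among them was not tested, and the bins were chosen after their values were seen.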
